A study of Mus musculus with 36 samples.

Results

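The simple epithelial keratins Krt7, Krt8, Krt18, Krt19, Krt20 and Krt23 were measured in RNA from primary organoids of the mouse prostate. They were taken by name and Ensembl identifier, are 6 of the 45232 genes in each deposited count table, and all 6 passed the filter on low counts. The organoids carried doxycycline-inducible pCW constructs: a control that the labels call empty vehicle (EV), FOXA1 in its wild-type form (WT), or the variants FE255del and R219S. FOXA1 binds DNA through its forkhead domain and is expressed in prostate epithelial cells. Cultures were taken on days 0, 1 and 11, 3 per construct and day, which gave 12 groups and 36 libraries of polyadenylated RNA. All groups came from cells sorted for DsRED, and the treatment in the labels is doxycycline at 500 ng/mL, which induces FOXA1 joined to DsRED through a 2A peptide. That day 0 was without doxycycline is stated only in how the deposited data are named, and the labels do not say whether any was given before the sort. Triplicates of a construct were seeded from its sorted cells and handled separately afterwards, so p-values measure the spread between such cultures, and a construct cannot be told apart from the cell population that carried it. Mouse strain, age and the species of the FOXA1 sequence are not given in the sources used here.

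Keratins build the intermediate filaments of epithelial cells. A filament forms from pairs of 1 type I and 1 type II keratin, so the partners are needed together. Simple keratins mark single-layered and luminal epithelium, and in the prostate KRT8 and KRT18 are the usual markers of luminal cells, while KRT5 and KRT14 mark basal cells. Among the 6 genes, Krt8 and Krt7 encode type II keratins and Krt18, Krt19, Krt20 and Krt23 encode type I keratins. KRT20 is best known from intestinal epithelium and the umbrella cells of urothelium.

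The type II genes and Krt18 lie together on chromosome 15 and the other type I genes on chromosome 11 (GRCm38, GENCODE M21). Krt7 (ENSMUSG00000023039.13) spans chr15:101411043-101430313 on the plus strand with 9 exons. Krt8 (ENSMUSG00000049382.9) spans chr15:101996698-102004482 on the minus strand with 9 exons. Its partner Krt18 (ENSMUSG00000023043.6) spans chr15:102028180-102032027 on the plus strand with 7 exons, so the pair is transcribed in opposite directions from starts 23697 bases apart, with no protein-coding gene between them. Krt19 (ENSMUSG00000020911.11) spans chr11:100140810-100148665 on the minus strand with 6 exons. Krt20 (ENSMUSG00000035775.2, chr11:99428403-99438150, minus strand, 8 exons) and Krt23 (ENSMUSG00000006777.7, chr11:99477974-99493137, minus strand, 8 exons) are neighbours with 39823 bases and no protein-coding gene between them. Krt7 overlaps the antisense gene Gm671 and Krt8 overlaps the lincRNA Gm36026 on the opposite strand. Neither was analysed here, and because the strand setting of the counting is not given in the sources used here, reads of these overlaps cannot be assigned with certainty. The pseudogene Krt8-ps is 98.6% identical to Krt8 over 941 aligned bases, so Krt8 counts carry that uncertainty.

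The promoters of the divergent pair Krt8 and Krt18 and of the neighbours Krt20 and Krt23 are shown because the first are filament partners and the second differed from EV in opposite directions in R219S at day 11. Each is the RefSeq sequence before the start site (GRCm38.p6), in the direction of the gene and cut back to lie before both annotated starts. Capitals mark the TATAAA match described after them.
Krt8 (chr15:102004483-102004592, minus strand): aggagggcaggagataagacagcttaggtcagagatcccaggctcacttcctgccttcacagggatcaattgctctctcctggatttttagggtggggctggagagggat
Krt18 (chr15:102027966-102028179, plus strand): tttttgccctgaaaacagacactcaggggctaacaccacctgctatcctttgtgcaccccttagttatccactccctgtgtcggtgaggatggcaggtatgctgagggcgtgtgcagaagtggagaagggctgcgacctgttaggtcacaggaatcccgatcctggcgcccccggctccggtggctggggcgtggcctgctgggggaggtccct
Krt20 (chr11:99438154-99438403, minus strand): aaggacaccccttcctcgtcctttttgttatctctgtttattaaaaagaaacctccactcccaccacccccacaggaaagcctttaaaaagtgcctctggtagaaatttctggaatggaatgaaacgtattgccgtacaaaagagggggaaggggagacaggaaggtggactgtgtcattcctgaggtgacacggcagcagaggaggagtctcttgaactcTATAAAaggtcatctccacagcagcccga
Krt23 (chr11:99493138-99493370, minus strand): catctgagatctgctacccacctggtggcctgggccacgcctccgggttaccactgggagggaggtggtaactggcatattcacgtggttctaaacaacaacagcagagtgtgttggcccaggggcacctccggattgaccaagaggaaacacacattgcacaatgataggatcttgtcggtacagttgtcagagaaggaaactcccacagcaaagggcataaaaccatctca

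In Krt20 the letters TATAAA stood at positions -29 to -24 from the start site, and 12.4% of 32851 mouse promoter windows of 250 bases hold this motif on either strand. The forkhead motif, searched as TGTTTAC or as TGTTTGC or as TATTTAC or as TATTTGC, is held by 11.9% of windows, and the AP-1 motif, searched as TGAGTCA or as TGACTCA, by 4.46%. Neither had a match on either strand in the 250 bases before the RefSeq start of Krt7, Krt8, Krt18, Krt20 or Krt23, searched before the printed sequences were cut back, and Krt19 was not searched here. That says only that these letters are not in those windows.

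Library totals ran from 61476938 to 102385337 counts. Foxa1 RNA, the check of the construct, averaged 226.7 CPM (counts scaled to library size by TMM) in the EV cultures of day 1, 414 CPM in those of WT, 320.2 CPM with FE255del and 309 CPM with R219S. At day 11 these constructs lay between 268.5 and 295.02 CPM against 230.2 CPM in EV. These counts are of the mouse gene Foxa1, so RNA of the construct and of the cells' own gene cannot be told apart. The species of the FOXA1 sequence is not given, so how fully construct RNA was counted is not known. The prostate epithelium markers summed to between 3889 and 14497 CPM in every library. That list includes the members Krt8 and Krt18, Foxa1 itself and the basal keratins Krt5 and Krt14, so the sum is not independent of them. Blood markers summed to at most 8.86 CPM, endothelial ones to at most 7.07 CPM and seminal vesicle ones to at most 0.0338 CPM. Fibroblast markers peaked in R219S at day 11, between 33.0 and 48.0 CPM. Smooth muscle markers summed on that day to 26.9 to 33.1 CPM in R219S and 27.7 to 29.8 CPM in WT, against 6.47 to 11.7 CPM in EV and 8.34 to 13.9 CPM in FE255del. The part of both lists in the day 11 differences was not tested. In bulk RNA, fewer cells of a type and less RNA per cell cannot be told apart.

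**Figure D1:**
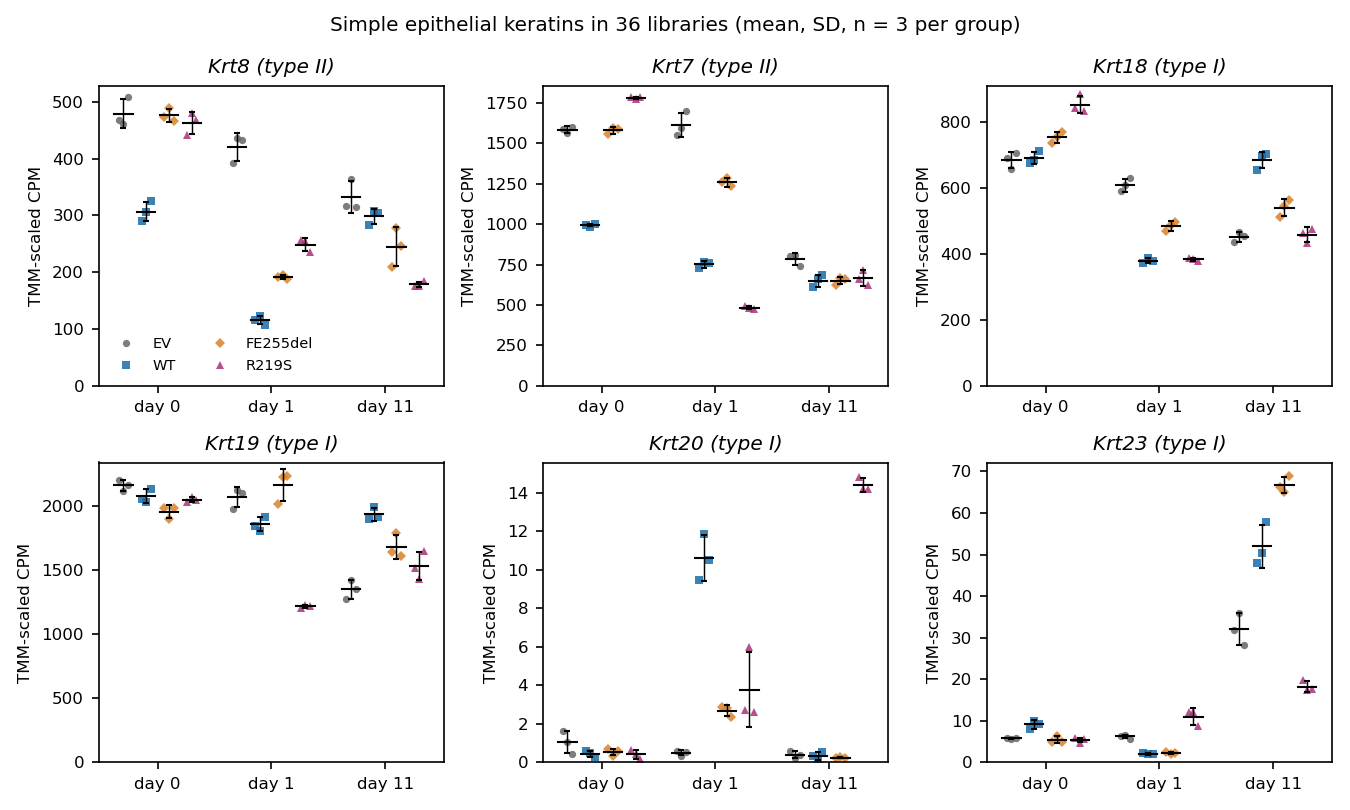
TMM-scaled CPM (linear axes from 0) of the 6 keratins in the 12 groups, 1 point per culture, with lines at the group mean and bars of 1 SD (n = 3). Krt19 stayed between 1216 and 2162 CPM in all groups, while Krt20 ran from 0.250 CPM in FE255del to 14.4 CPM in R219S, both at day 11.

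Krt19, a type I keratin known for its short tail, was the most abundant member per length in every library. It made up 50.3% to 70.4% of the summed per-kilobase level (CPM per kilobase of the principal transcript), followed by Krt18 with 15.3% to 23.7%. On this scale the type II members had smaller shares than Krt18, 7.52% to 17.2% for Krt7 and 3.19% to 11.4% for Krt8. The rank of Krt7 depends on which length is used, since its principal transcript is 4094 bases long but its coding sequence 1371 bases. Per kilobase of coding sequence Krt7 was 16.1% to 33.0% and stood above Krt18 in 33 of 36 libraries. Krt20 never exceeded 0.494% and Krt23 never exceeded 2.52%. The 4 abundant genes varied least across the 12 groups, with highest to lowest group means apart by 1.78-fold for Krt19, 2.25-fold for Krt18, 3.68-fold for Krt7 and 4.14-fold for Krt8. The low members varied most, 31.7-fold for Krt23 and 57.7-fold for Krt20.

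The constructs already differed in some members at day 0. In WT, 4 of 6 keratins differed from EV, where 22.7% of all genes tested were called. Krt7 was 994 ± 7.36 CPM in WT and 1585 ± 19.8 CPM in EV (SD, n = 3 each), a log2 difference of -0.67 ± 0.04 (SE, adjusted p = 1.2e-13). Krt8 was lower by a similar amount, -0.64 ± 0.07 (adjusted p = 1.2e-08), while its partner Krt18 did not pass (0.01 ± 0.04). Krt23 was higher in WT at day 0 (0.66 ± 0.12, adjusted p = 7.4e-05). FE255del at day 0 had 2 of 6 keratins called against a background of 20.8%, Krt18 at 0.14 and Krt19 at -0.14 log2, and R219S had 3 of 6 against 20.1%, among them Krt18 at 0.32 ± 0.04. The FE255del calls and the day 0 calls of Krt20 did not survive leaving out single libraries, as given in the closing section. Because of these starting differences, the change since day 0 minus that of EV is given for the later days where it departs from the comparison with EV, and every such difference that passed is in the closing section.

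Krt8, the type II partner of Krt18 in luminal cells, was lower than in EV in all 3 FOXA1 constructs at day 1. EV cultures had 393, 436 and 433 CPM, WT cultures 116, 123 and 108 CPM, FE255del cultures 192, 195 and 187 CPM, and R219S cultures 256, 255 and 235 CPM. No culture of a FOXA1 construct reached the lowest EV culture, and the 3 constructs did not overlap each other. The log2 difference of WT from EV was -1.86 ± 0.07 (3.63-fold lower, adjusted p = 5.3e-21), that of FE255del -1.13 ± 0.07 (adjusted p = 2.1e-15) and that of R219S -0.76 ± 0.07 (adjusted p = 4.3e-11). With the day 0 gap taken off, the WT difference was -1.22 ± 0.10, the FE255del difference -1.13 ± 0.10 and the R219S difference -0.71 ± 0.10. WT and FE255del thus lay close once the starting level was counted, whereas at day 1 itself FE255del was 0.73 ± 0.07 above WT (adjusted p = 2.9e-10) and R219S 1.10 ± 0.07 above WT (adjusted p = 3.7e-15).

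By day 11 the order of the constructs in Krt8 had turned over. WT returned to 283, 308 and 305 CPM, beside 316, 364 and 315 CPM in EV, a difference that did not pass (-0.15, 95% interval -0.29 to -0.01, adjusted p = 7.9e-02). It passed at 4.4e-02 without EV day 11 replicate 3 and at 4.4e-02 with the replicate number as a term. FE255del cultures had 209, 278 and 247 CPM, and R219S cultures, now the lowest, 176, 176 and 184 CPM. As the change since day 0 minus that of EV, WT was higher (0.49 ± 0.10, adjusted p = 3.0e-04), while FE255del and R219S were lower, at -0.43 and -0.84. R219S differed from EV by -0.89 ± 0.07 log2 (adjusted p = 3.0e-12) and from FE255del by -0.45 ± 0.07 (adjusted p = 1.5e-06). Within WT, Krt8 rose from day 1 to day 11 by 1.37 ± 0.07 (adjusted p = 2.4e-17), while within R219S it changed by -0.48 ± 0.07 over the same interval (adjusted p = 4.3e-07). The lower value of FE255del than WT at day 11 (-0.29, adjusted p = 2.7e-03) did not pass when only those 2 groups were fitted (adjusted p = 8.0e-02).

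Krt7, the other type II keratin, ordered the constructs differently at day 1. EV cultures had 1553, 1594 and 1698 CPM, FE255del cultures 1259, 1285 and 1233 CPM, WT cultures 729, 767 and 759.9 CPM, and R219S cultures 496, 479 and 478 CPM. R219S, the mildest in Krt8, was thus the lowest in Krt7, again with no overlap between any of the 4 groups. The log2 difference of R219S from EV was -1.74 ± 0.05 (3.34-fold lower, adjusted p = 9.9e-26), that of WT -1.10 ± 0.05 (adjusted p = 6.4e-21) and that of FE255del -0.36 ± 0.04 (adjusted p = 1.9e-08). Much of the WT value was there at day 0. From day 0 to day 1, the Krt7 change relative to that of EV was -0.43 ± 0.06 with WT, -0.36 ± 0.06 with FE255del and -1.91 ± 0.06 with R219S. The direct contrast of R219S with FE255del at day 1 was -1.38 ± 0.05 (adjusted p = 2.0e-23).

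At day 11 the constructs converged in Krt7. WT averaged 651 ± 36.8 CPM, FE255del 651 ± 22.6 CPM and R219S 667 ± 47.8 CPM, all below the 785 ± 36.3 CPM of EV (n = 3 each). The 3 differences from EV were -0.27, -0.27 and -0.23 log2 with adjusted p of 6.6e-06, 6.2e-06 and 7.7e-05. For WT, which had started at -0.67, the change since day 0 minus that of EV had the opposite sign (0.40 ± 0.06, adjusted p = 9.2e-06), whereas it was -0.27 for FE255del and -0.40 for R219S. Between FOXA1 constructs no Krt7 difference passed, with 95% intervals of -0.09 to 0.09 for FE255del minus WT and -0.06 to 0.13 for R219S minus WT. EV itself changed by -1.04 ± 0.05 between days 1 and 11 (adjusted p = 2.6e-18), and R219S rose by 0.46 ± 0.04 (adjusted p = 6.6e-11).

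**Figure D2:**
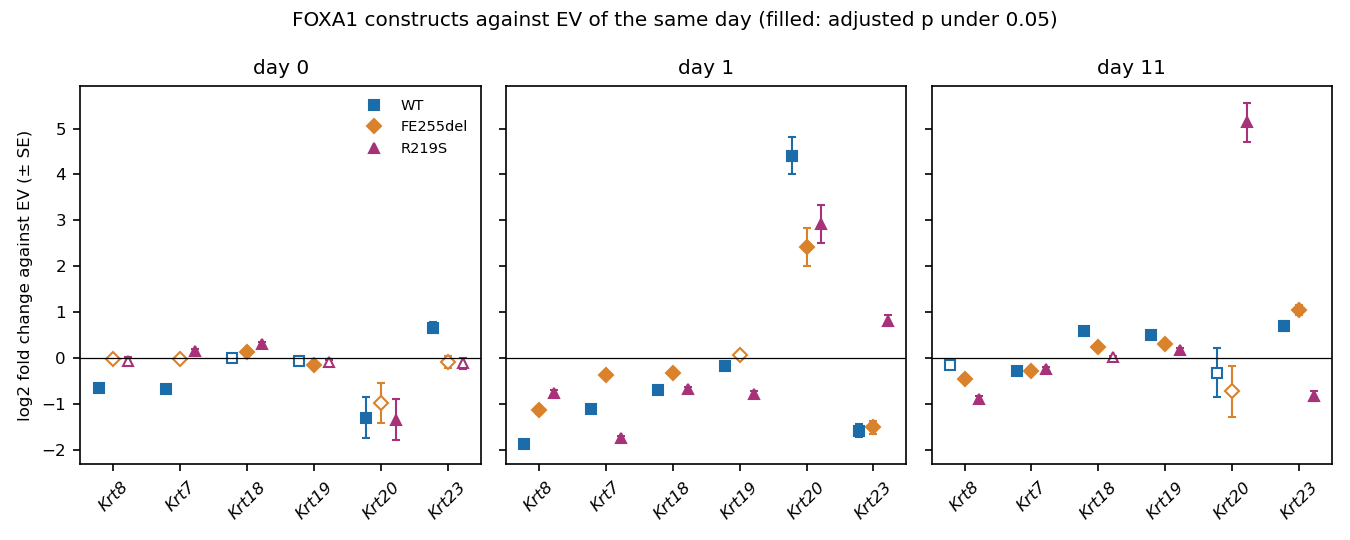
Log2 fold change against EV of each keratin for WT, FE255del and R219S at days 0, 1 and 11, with bars of 1 SE and filled points where the adjusted p was under 0.05. Krt20 stands out in WT at day 1 (4.41) and in R219S at day 11 (5.13), and Krt7 in R219S at day 1 (-1.74).

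Krt18, the type I partner of Krt8, was lower than in EV at day 1 in all 3 constructs but not at day 11. Day 1 cultures of EV had 589, 608 and 629 CPM, those of WT 372, 387 and 378 CPM, those of FE255del 468, 488 and 497 CPM, and those of R219S 388, 385 and 379 CPM. WT and R219S overlapped each other, and their difference was 0.02 with a 95% interval of -0.07 to 0.10. Against EV the log2 differences were -0.68 ± 0.04 for WT (adjusted p = 4.7e-16), -0.66 ± 0.04 for R219S (adjusted p = 2.0e-15) and -0.33 ± 0.04 for FE255del (adjusted p = 3.0e-08). The Krt8 values of the same constructs were -1.86, -0.76 and -1.13, and the 2 genes were not tested against each other. At day 11 WT cultures stood at 656, 696 and 702 CPM, above the 435, 467 and 455 CPM of EV (0.60 ± 0.04, adjusted p = 6.8e-14). FE255del was also higher, by 0.26 ± 0.04 (adjusted p = 5.2e-06), and R219S did not pass, at 0.02 with a 95% interval of -0.07 to 0.10. Counted from day 0 and against EV, WT was 0.59 ± 0.06 higher, FE255del did not pass (0.12, adjusted p = 0.18) and R219S was lower (-0.30 ± 0.06, adjusted p = 2.1e-04). EV showed a single member call between days 0 and 1, Krt18 at -0.17 ± 0.04 (adjusted p = 3.0e-02), against a background of 1.43%, and it was lost when any of 4 single libraries was left out.

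Krt19 was the steadiest member, and R219S at day 1 was its lowest group. EV cultures at day 1 had 1979, 2126 and 2098 CPM, and R219S cultures 1201, 1224 and 1223 CPM, a difference of -0.77 ± 0.05 log2 (adjusted p = 2.3e-15). WT differed by -0.16 ± 0.05 (adjusted p = 6.1e-03), but under total-count scaling that value was -0.03 (adjusted p = 0.62). That scaling raised the members in this contrast by a median of 0.12. The WT change since day 0 minus that of EV did not pass either (-0.10, adjusted p = 0.275). FE255del did not pass at day 1 (0.06, 95% interval -0.03 to 0.16), and it passed at 0.17 under total-count scaling (adjusted p = 5.2e-03) and at 0.21 ± 0.07 as the change since day 0 minus that of EV (adjusted p = 1.5e-02). That change includes a day 0 gap of -0.14, and its call was lost without EV day 1 replicate 1 (0.18, adjusted p = 5.2e-02). At day 11 every construct stood above the 1271, 1424 and 1355 CPM of EV. WT was 0.52 ± 0.05 higher (adjusted p = 7.3e-11), FE255del 0.31 ± 0.05 (adjusted p = 1.9e-06) and R219S 0.18 ± 0.05 (adjusted p = 3.3e-03). The last did not pass without R219S day 11 replicate 3 (0.13, adjusted p = 5.4e-02) or with only EV and R219S of day 11 in the fit (adjusted p = 0.14).

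Krt20 was low in most groups and rose above EV in 4. In the 8 groups where no culture exceeded 2 CPM its libraries held 8 to 114 counts each. At day 1 EV cultures had 0.611, 0.356 and 0.525 CPM and WT cultures 9.47, 11.8 and 10.5 CPM, a rise of 4.41 ± 0.41 log2 (adjusted p = 1.7e-10). FE255del cultures had 2.85, 2.83 and 2.36 CPM (2.43 ± 0.41, adjusted p = 1.2e-05), and R219S cultures had 2.71, 6.005 and 2.63 CPM (2.92 ± 0.41, adjusted p = 6.7e-07). R219S day 1 replicate 2 stood above its partners, and without it the R219S difference from EV was 2.42 (adjusted p = 8.7e-06). The contrast of R219S with FE255del at day 1 did not pass (0.49, 95% interval -0.20 to 1.19), and WT was above both. FE255del differed from WT by -1.98 ± 0.34 (adjusted p = 2.0e-05) and R219S by -1.49 ± 0.33 (adjusted p = 2.9e-04).

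By day 11 Krt20 had parted by construct. In WT it was back to 0.321, 0.119 and 0.548 CPM and in FE255del to 0.230, 0.296 and 0.223 CPM, both overlapping the 0.610, 0.223 and 0.392 CPM of EV. In R219S it reached 14.8, 14.2 and 14.2 CPM, above every other culture of the series. That was 5.13 ± 0.42 log2 above EV (35.1-fold, adjusted p = 6.3e-11), 5.45 ± 0.43 above WT (adjusted p = 1.2e-11) and 5.85 ± 0.44 above FE255del (adjusted p = 5.3e-12). The change since day 0 minus that of EV was 6.46 ± 0.61 for R219S at day 11 and did not pass for WT or FE255del. The R219S value includes a day 0 gap of -1.33, a call that was lost when single libraries were left out. Over the settings it ran from 6.01 to 6.89. Within R219S the rise from day 1 to day 11 was 1.93 ± 0.33 (adjusted p = 1.1e-05), while WT changed by -5.005 ± 0.43 (adjusted p = 4.7e-11) and FE255del by -3.43 ± 0.45 (adjusted p = 2.6e-07).

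Markers of the tissues best known for Krt20 were low where Krt20 was highest. The 5 uroplakins of urothelium, Upk1a, Upk1b, Upk2, Upk3a and Upk3b, summed to 122 to 131.1 CPM in WT at day 1 and 76.1 to 86.6 CPM in FE255del at day 1, but only 1.80 to 2.22 CPM in R219S at day 1. At day 11, that sum was 3.41 to 4.87 CPM in R219S, against 792 to 814 CPM in WT and 933 to 1097 CPM in FE255del, where Krt20 was low. Upk3a was 0.214 CPM in R219S at day 11 and 661 CPM in WT. The 5 intestinal markers, Cdx1, Cdx2, Vil1, Lgr5 and Muc2, summed to 5.18 to 8.14 CPM in R219S at day 11. That range had the lowest values in the series, but 1 of the 5 markers was at 0 in every group.

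Krt23, a type I keratin usually expressed at low level, moved more with time than any abundant member. In EV it was 5.76 ± 0.140 CPM at day 0, 6.26 ± 0.441 CPM at day 1 and 32.1 ± 3.83 CPM at day 11 (n = 3 each), a rise of 2.36 ± 0.12 log2 between the later days (adjusted p = 2.7e-16). At day 1 WT cultures had 2.35, 1.99 and 1.97 CPM and FE255del cultures 2.41, 1.98 and 2.25 CPM, overlapping each other. R219S cultures had 12.2, 12.2 and 8.74 CPM, all above the highest EV culture of that day. WT differed from EV by -1.57 ± 0.14 (adjusted p = 8.6e-12) and FE255del by -1.502 ± 0.14 (adjusted p = 4.1e-11), whereas R219S was 0.82 ± 0.12 higher (adjusted p = 6.2e-07). The contrast of R219S with WT at day 1 was 2.39 ± 0.13 (adjusted p = 1.6e-16), and that of FE255del with WT was 0.07 with a 95% interval of -0.24 to 0.38.

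Each of these directions against EV was the opposite by day 11. WT cultures had 47.9, 50.3 and 57.8 CPM, FE255del cultures 66.4, 65.2 and 68.8 CPM, and R219S cultures 19.8, 17.3 and 17.6 CPM, beside 31.8, 36.003 and 28.4 CPM in EV, and no pair of groups overlapped. WT was higher than EV by 0.70 ± 0.11 (adjusted p = 1.9e-06) and FE255del by 1.06 ± 0.11 (adjusted p = 6.0e-10), and R219S differed by -0.81 ± 0.11 (adjusted p = 2.7e-07). WT had a difference of 0.66 already at day 0, and the change from day 0 relative to EV did not pass (0.03, adjusted p = 0.94). FE255del was 0.36 ± 0.10 above WT (adjusted p = 1.3e-02), a call lost without WT day 11 replicate 1 (0.30, adjusted p = 9.0e-02) or replicate 2 (0.34, adjusted p = 5.7e-02). Within R219S, Krt23 rose from day 1 to day 11 by 0.73 ± 0.11 (adjusted p = 1.2e-06), as its neighbour Krt20 did. Among the 4 constructs at day 11, R219S thus had the highest Krt20 and the lowest Krt23.

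**Figure D3:**
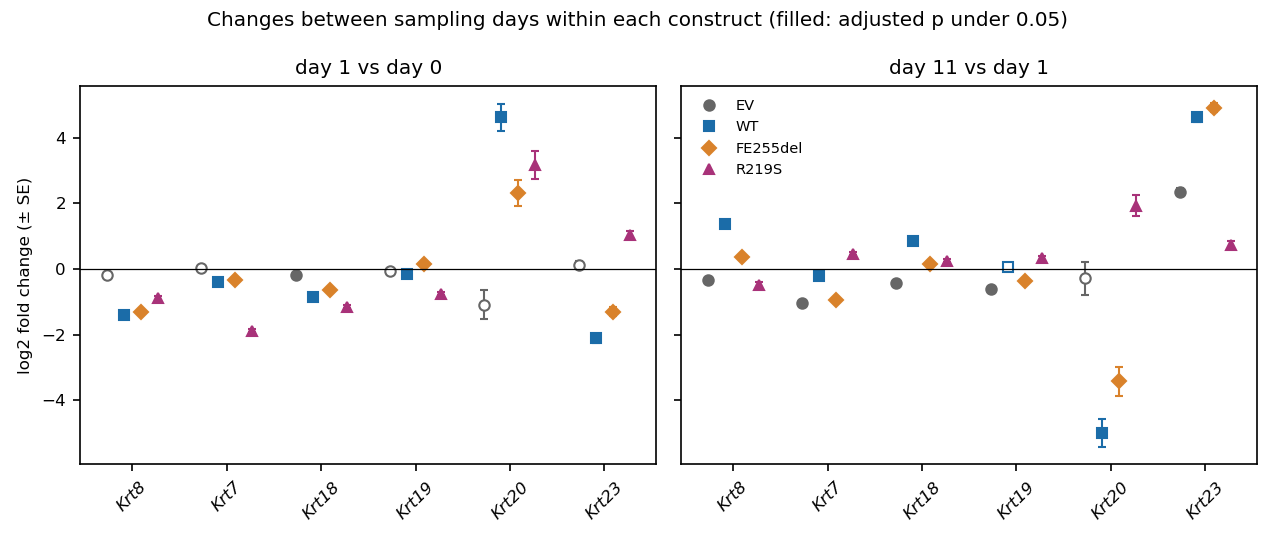
Log2 fold change from day 0 to day 1 and from day 1 to day 11 of each keratin within each construct, with bars of 1 SE and filled points where the adjusted p was under 0.05. In EV only Krt18 is filled in the first interval, and Krt20 of R219S rises in both intervals (3.17 and 1.93) while that of WT turns from 4.62 to -5.005.

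Counted over the 6 members, 5 or 6 differed from EV in each FOXA1 construct at day 1 and 4 or 5 at day 11. WT had 6 of 6 members called at day 1, where 60.5% of all genes were called. Of these, 5 were lower (30.9% of all genes) and Krt20 was higher (29.6%). FE255del had 5 of 6 called (53.2% of all genes), 4 lower (27.7%) and 1 higher (25.5%). R219S had 6 of 6 called (48.5%), 4 lower (25.3%) and 2 higher (23.2%). The median log2 difference of the members was -0.89, -0.34 and -0.71 in that order, beside medians of all genes of -0.01, -0.03 and -0.04. At day 11 the directions were mixed. WT had 4 members called (40.6% of all genes), 3 higher (21.0%) and 1 lower (19.7%). FE255del had 5 (42.2%), 3 higher (22.6%) and 2 lower (19.6%), and R219S had 5 (32.1%), 2 higher (17.7%) and 3 lower (14.4%). The member medians were 0.18, -0.01 and -0.11. These comparisons share the EV cultures. Under total-count scaling the share of higher calls among all genes called went from 49.0% to 60.8% for WT and from 48.0% to 61.0% for FE255del at day 1, and from 55.2% to 42.6% for R219S at day 11. Taken as the change since day 0 minus that of EV, calls at day 1 numbered 5 in WT (44.0% of all genes), 6 with FE255del (40.2%) and 6 with R219S (39.4%). At day 11 they numbered 4 in WT (21.4%), 4 with FE255del (20.5%) and 6 with R219S (27.1%).

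The variants were set directly against WT, and R219S against FE255del. FE255del differed from WT in 5 of 6 members at day 1 (41.7% of all genes) and in 4 of 6 at day 11 (17.7%). R219S differed from WT in 5 of 6 at day 1 (59.6%) and in 5 of 6 at day 11 (48.9%), and from FE255del in 5 of 6 on both days (52.5% and 49.2%). At day 0 the counts were 4 for FE255del against WT (26.8%), 4 for R219S against WT (39.8%) and 2 for R219S against FE255del (12.2%). At day 1 FE255del lay above WT in Krt8, Krt7, Krt18 and Krt19 and below it in Krt20. At day 11 R219S lay below WT in Krt8, Krt18, Krt19 and Krt23, at -0.74, -0.58, -0.34 and -1.51 log2, and above it in Krt20. Foxa1 RNA at day 1 was itself lower than in WT in FE255del (-0.37 ± 0.06, adjusted p = 3.9e-06) and R219S (-0.42 ± 0.06, adjusted p = 1.6e-07), and its part in the differences between constructs was not tested.

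Over time, a single member passed in EV from day 0 to day 1, and more did later. From day 1 to day 11 EV changed in 5 of 6 members (background 44.5%), with Krt7, Krt8, Krt18 and Krt19 at -1.04, -0.34, -0.43 and -0.61 log2 and Krt23 rising. From day 0 to day 1 all 6 members changed in WT (59.1%), FE255del (53.3%) and R219S (52.1%). The Krt19 call in WT was lost under total-count scaling (-0.07, adjusted p = 0.24). In FE255del it was lost without FE255del day 0 replicate 2 (0.12, adjusted p = 6.4e-02). From day 1 to day 11, 5 changed in WT (55.9%), 6 in FE255del (53.0%) and 6 in R219S (58.5%). WT recovered Krt8 and Krt18 over this interval, by 1.37 ± 0.07 and 0.85 ± 0.04, while Krt19 did not pass (0.06, adjusted p = 0.32).

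The balance between filament partners was described per kilobase of principal transcript, without a test. An exact permutation test of 3 cultures against 3 cannot give a p below 0.10. In EV the Krt8 level per Krt18 level was 0.513 ± 0.016 at day 0, 0.507 ± 0.019 at day 1 and 0.538 ± 0.032 at day 11 (SD, n = 3). In WT it was 0.326 ± 0.010 at day 0, 0.224 ± 0.013 at day 1 and 0.320 ± 0.004 at day 11, so it was below every EV culture throughout. FE255del moved from 0.464 ± 0.017 through 0.291 ± 0.013 to 0.332 ± 0.039. R219S moved from 0.398 ± 0.014 up to 0.475 ± 0.017 at day 1, when both partners were lower than in EV, and had 0.286 ± 0.010 at day 11, when Krt8 but not Krt18 was called lower. At day 11 none of the 3 FOXA1 constructs overlapped EV, whose cultures ran from 0.509 to 0.573.

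The summed type II level (Krt7 and Krt8) per summed type I level (Krt18, Krt19, Krt20 and Krt23) was also below EV in all 3 constructs on days 1 and 11. It covers the 6 members only and leaves out other filament partners, such as the basal keratins Krt5 and Krt14. Before division by length, the basal keratins summed to 1270 to 10701 CPM per library, against 2327 to 5215 CPM for the members. The order of the construct means differed from that of Krt8 per Krt18, but at day 11 their cultures overlapped. The type II per type I ratio was 0.303 ± 0.015 for EV at day 11 and 0.179 ± 0.006, 0.191 ± 0.009 and 0.195 ± 0.020 in WT, FE255del and R219S. At day 1 EV had 0.350 ± 0.007, WT 0.168 ± 0.007, FE255del 0.237 ± 0.014 and R219S 0.234 ± 0.008. WT was below EV already at day 0, with 0.222 ± 0.002 against 0.341 ± 0.008. FE255del (0.356 ± 0.011) and R219S (0.354 ± 0.004) were not below EV at day 0. The ratio is higher with the coding length, which in Krt7 is far shorter than the transcript. At day 11 it was then 0.533 in EV and 0.311, 0.343 and 0.370 in the constructs, in the same order. At day 1 the choice of length mattered more. FE255del and R219S overlapped per kilobase of transcript, but per kilobase of coding sequence FE255del cultures ran from 0.457 to 0.513 and R219S cultures from 0.386 to 0.409. Summed over the 6 members, R219S at day 1 was the lowest group at 1293 ± 9.68 CPM per kilobase, against 2349 ± 86.1 in EV, and it was close to EV at day 11 (1564 ± 74.1 and 1553 ± 74.5).

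**Figure D4:**
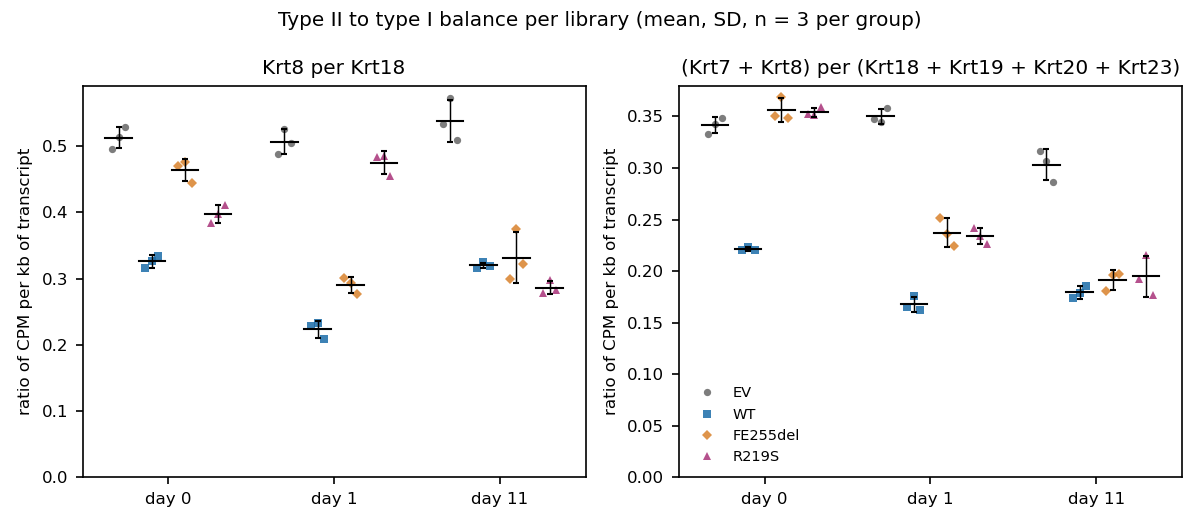
Krt8 per Krt18 and type II per type I, as ratios of CPM per kilobase of principal transcript, by construct and day with 1 point per culture, a line at the mean and bars of 1 SD. EV stays at 0.507 to 0.538 for Krt8 per Krt18, and at day 11 all cultures of WT, FE255del and R219S lie below all EV cultures in both ratios.

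Other keratins and their binding proteins gave the surroundings of these changes. All 4 basal keratins fell below EV at day 1 in each construct, with medians of -1.93, -2.25 and -0.86 log2 for WT, FE255del and R219S. Of all genes tested, 30.9%, 27.7% and 25.3% were lower on that day and 29.6%, 25.5% and 23.2% were higher. Krt14, the basal type I keratin, changed by -3.20 ± 0.07 with WT, -3.23 ± 0.07 with FE255del and -0.998 ± 0.07 with R219S, and its partner Krt5 by -1.25, -2.61 and -0.71. At day 11 Krt5 was still -1.04 in WT and -1.02 in FE255del, while in R219S it did not pass (0.11, adjusted p = 1.2e-01) and Krt17, a basal and stress keratin, was 0.71 ± 0.07 higher. The basal keratins did not move as one on that day. Under RLE size factors, 1 was higher and 3 were lower than EV in WT and in FE255del, and 2 were higher and 1 lower in R219S. Total-count scaling gave the same counts. Of 12 suprabasal and stress keratins tested, 9 fell in each construct at day 1, and 2, 2 and 1 rose in WT, FE255del and R219S. At day 11, 8 fell and 1 rose in WT, 9 fell and 2 rose in FE255del, and 6 fell and 4 rose in R219S, where the median was -0.70. All genes lower on that day were 19.7%, 19.6% and 14.4%, and all genes higher 21.0%, 22.6% and 17.7%. Krt6a, induced in wounded epithelium, changed by -2.66 in WT and -2.86 in FE255del at day 1, and in R219S at day 11, as 1 of the 4 that rose, it was 0.62 ± 0.08 higher than in EV.

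Of 17 keratin-binding and filament-linking proteins tested, 13 fell and 2 rose in WT at day 1, 12 fell and 3 rose in FE255del, and 6 fell and 5 rose in R219S, beside 30.9%, 27.7% and 25.3% of all genes lower and 29.6%, 25.5% and 23.2% higher. Ppl (periplakin, a linker of filaments to cell junctions) stood at -1.54 ± 0.05 in WT, -1.02 ± 0.04 in FE255del and -1.29 ± 0.05 in R219S. Dnajb6, a chaperone that binds KRT18, rose by 0.61 ± 0.05 in R219S at day 1. At day 11, 10 fell and 1 rose in WT and in FE255del, and 1 fell and 9 rose in R219S, beside 19.7%, 19.6% and 14.4% of all genes lower and 21.0%, 22.6% and 17.7% higher. The desmosomal plakophilin Pkp1 was -0.57 ± 0.05 in WT and -1.07 ± 0.05 in FE255del and 0.24 ± 0.05 in R219S on that day. Under total-count scaling 7 in place of 9 rose in R219S. Median differences at day 11 were -0.28, -0.27 and 0.12, beside medians of all genes between 0.00 and 0.01.

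Luminal epithelial genes moved in both directions where Krt8 and Krt18 were lower. Of 23 tested, 5 rose and 12 fell in WT at day 1, 8 rose and 11 fell in FE255del, and 5 rose and 16 fell in R219S. All genes higher on that day were 29.6%, 25.5% and 23.2%, and all genes lower 30.9%, 27.7% and 25.3%. At day 11, 7 rose and 12 fell in WT, 8 rose and 8 fell in FE255del, and 7 rose and 10 fell in R219S, beside 21.0%, 22.6% and 17.7% of all genes higher and 19.7%, 19.6% and 14.4% lower. Cd24a, a luminal surface marker, was 1 of the 5 that rose in R219S at day 1 (2.37 ± 0.05), where 16 fell. It was also 1 of the 7 that rose there at day 11 (0.89 ± 0.05), where 10 fell. Spdef, a transcription factor of secretory epithelium, was 5.69 ± 0.23 higher in WT and 6.28 ± 0.23 higher in FE255del at day 11, where Krt23 was higher too.

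Across the 12 group means on a log2 scale (CPM plus 1), Krt8 and Krt18 had a Pearson r of 0.79, Krt7 and Krt19 an r of 0.75, and Krt8 and Krt20 an r of -0.78. These values describe groups that share their constructs and starting cells. The genes most like each member were sought among tested genes with a symbol that averaged 2 CPM or more. Gm, Rik, LOC, clone-type and mitochondrial (mt-) names were left out. The 3 most like Krt8 were Padi4 (0.97), Pmm2 (0.95) and Plekha7 (0.95), and the 3 most like Krt18 were Arhgap5 (0.96), Iqgap3 (0.95) and Plaur (0.95). For Krt7 they were Pstpip2 (0.95), Hnrnpul2 (0.94) and Rab8a (0.94), and for Krt19 Lmo7 (0.92), Esrp2 (0.89) and Celf4 (0.89). Krt20 was most like Atp6v1e1 (0.93), Dubr (0.91) and Ube2r2 (0.91), and Krt23 most like Cep68 (0.97), Slc40a1 (0.96) and Bag6 (0.96). With the 36 libraries in place of the means, 1 of the 3 genes stayed among the top 3 for Krt7 and 2 of the 3 for each other member.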

How the data were processed

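The authors deposited 1 table of counts per library. They were treated like expected counts (estimated, rounded before use), since 298311 of all deposited values carry decimals, but none lies farther than 3.0e-09 from a whole number, so rounding them gave whole counts. The submitters' processing notes name STAR 2.4.2a, featureCounts 1.4.3 and mm10, without their roles. Annotation release and strand setting are not given in the sources used here. Of values from 1 to 20, 69.7% are even, against 50.3% above 1000, so both reads of a pair appear to be counted, and counting alone overstates precision. Of 45232 identifiers, 44585 matched a symbol in GENCODE M21, and the 4 promoters come from the RefSeq table.

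The filterByExpr function left 18176 genes, TMM factors ran from 0.938 to 1.08, and edgeR 4.0.16 under R 4.3.3 fitted the 12 groups over the 36 libraries in 1 robust quasi-likelihood model (common biological coefficient of variation 0.0695). In all, 32 comparisons were tested, two-sided, by the quasi-likelihood F test, with p-values adjusted by Benjamini-Hochberg over all genes tested, with a threshold of 0.05. The SE is the log2 fold change divided by the square root of F. The procedure was tested on simulated data. Replicate pairs differed by more than sampling noise (mean chi-square per gene 2.1 to 31.4, where noise gives 1), so no library was a copy.

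The members and lists were chosen with earlier results of these data known. Named genes are the 6 members, Foxa1, the list genes with the smallest p in a comparison (at most 4 a list, with their values in other constructs) and the 3 genes most like each member. The urothelial and intestinal markers beside Krt20 are outside this rule. They are named as whole lists, and Upk3a also by its level. Alternatives were RLE size factors, total counts, no filter, a stricter filter, only the compared groups, DESeq2 1.42.0, counts divided by 2, the replicate number as a term, and each library left out. Coding length was added after the data were seen.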

Additional observations from a re-analysis of the deposited data

Results flagged for a closer look

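For 31 member values, the change of a FOXA1 construct since day 0 differed from the change of EV by the interaction test in edgeR (adjusted p under 0.05). At day 1 this held for 5 of 6 members in WT (44.0% of all genes), for 6 in FE255del (40.2%) and for 6 in R219S (39.4%). The day 1 log2 differences in WT were -0.43 for Krt7, -1.22 for Krt8, -0.69 for Krt18, 5.70 for Krt20 and -2.23 for Krt23. In FE255del they were -0.36 for Krt7, -1.13 for Krt8, -0.47 for Krt18, 0.21 for Krt19, 3.40 for Krt20 and -1.43 for Krt23. In R219S they were -1.91 for Krt7, -0.71 for Krt8, -0.98 for Krt18, -0.69 for Krt19, 4.25 for Krt20 and 0.92 for Krt23, so Krt23 there had the opposite sign to both other constructs. The Krt20 values include day 0 gaps of -1.29 in WT, -0.97 in FE255del and -1.33 in R219S. The FE255del gap did not pass, and the other gaps did not survive leaving out single libraries. The Krt19 call in FE255del was lost without EV day 1 replicate 1 (0.18, adjusted p = 5.2e-02).

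At day 11 it held for 4 of 6 members in WT (21.4% of all genes), 4 in FE255del (20.5%) and 6 in R219S (27.1%). The WT values were 0.40 for Krt7, 0.49 for Krt8, 0.58 for Krt19 and 0.59 for Krt18, all positive. The FE255del values were -0.27 for Krt7, -0.43 for Krt8, 0.46 for Krt19 and 1.13 for Krt23. The R219S values were -0.40 for Krt7, -0.84 for Krt8, -0.30 for Krt18, 0.26 for Krt19, 6.46 for Krt20 and -0.71 for Krt23. Groups of 3 cultures were not examined for outlying samples.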

How the results depend on the processing

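No member value that passed changed sign under any setting, but 19 that did not pass took both signs, among them Krt20 in R219S against FE255del at day 1 (0.49, and -0.0079 without R219S day 1 replicate 2). RLE size factors, DESeq2, counts divided by 2 and the stricter filter kept all 192 member results on their side of the threshold. Total counts lost 3 calls and gained 2, no filter lost 3, fitting only the compared groups lost 5 and gained 4, and leaving out 1 library lost 32 and gained 4 among 1368 results. The day 0 calls of Krt20 in WT (-1.29, adjusted p = 3.8e-02) and R219S (-1.33, adjusted p = 3.7e-02) were lost without EV day 0 replicate 1 (-0.83 and -0.87) and also without EV replicate 2 or without replicate 2 or 3 of the construct. In FE255del at day 0, the Krt19 call was lost without any 1 of the 6 libraries, and the Krt18 call without EV replicate 2 or FE255del replicate 3, so the members called ran from 0 to 2. Krt18 in FE255del against WT at day 0 was lost without filter (adjusted p = 6.8e-02) and under total counts (0.08, adjusted p = 0.11). It was also lost without FE255del replicate 2 or 3 or without WT replicate 1 or 2. Krt19 in R219S against FE255del at day 11 was lost with only those groups (adjusted p = 0.22). The same call was lost without FE255del replicate 2 (-0.09, adjusted p = 0.19) or without R219S replicate 1 or 2.

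Genes called in EV between days 0 and 1 numbered 260, but 171 with the stricter filter, 658 with only the compared groups and 62 to 180 with 1 library left out, and members called there were 1, 2 with only the compared groups, and 0 to 1. With only the compared groups, genes called fell from 5833 to 3817 for R219S against EV and from 3213 to 1706 for FE255del against WT at day 11. With 1 library left out, genes called at day 0 were 2490 to 3486 for FE255del against EV (3776 with all), 2091 to 3512 for R219S against EV (3654) and 1470 to 1756 for R219S against FE255del (2219). Total counts moved the share of higher calls by over 10 percentage points in several comparisons, most in R219S against EV at day 0, from 65.6% to 47.2%.

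Pairing by replicate number was looked for with the rule that all 3 same-numbered pairs correlate above 0.1. It held in none of 26 comparisons (range -0.61 to 0.52). Because 1 low pair fails a comparison, the rule cannot show that samples were unpaired. R219S against FE255del at day 0 had 0.44, 0.52 and 0.07. With the replicate block, genes called rose to at most 1.06 times, and the Krt8 call of WT against EV at day 11 was gained (-0.15, adjusted p = 4.4e-02).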
